A study of Mus musculus with 8 samples.

Results

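N6-methyladenosine (m6A) peaks annotated to noncoding exons of protein-coding genes were described in 4 deposited peak lists. Members were the peaks to which the authors gave the class exon, as opposed to CDS, 5' UTR or 3' UTR, in a gene that they called protein-coding. There were 3127 such peaks among 35697 peaks in all, in 1025 genes. By these classes such an exon was assigned to neither coding sequence nor a UTR. Noncoding exon is used below as the name of this class, not for a checked absence of coding sequence. Protein-coding genes also make transcripts without a coding annotation, such as processed or intron-retaining forms. The files do not name the transcript behind a class, so whether other transcripts of the gene code there was not analysed here.

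Methylated RNA immunoprecipitation sequencing (MeRIP-seq) was applied to germ cells of the spermatogenic line, taken from the testes of C57BL/6 mice aged 12 weeks. The mice were wild type (WT) or Alkbh5-/- (KO), and the cells are labelled PA and RO, which the series title spells out as pachytene spermatocytes and round spermatids. Each genotype and cell fraction had 1 input library of fragmented total RNA and 1 library of RNA immunoprecipitated (IP) with an antibody against m6A, so the 8 samples formed 8 groups of 1. The labels do not say how many mice were pooled or how the fractions were separated. With 1 library per group no comparison has a replicate check and none was tested, and every interval below covers counting error only. Peaks of 1 gene share their RNA and reads, so intervals over peaks are narrower than independent units would give.

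m6A is written by a nuclear methyltransferase complex that includes METTL3, METTL14 and adaptor proteins such as RBM15, is read by YTH-domain proteins, and is removed by the demethylases ALKBH5 and FTO. The mark sits mostly in DRACH sequence contexts, of which GGAC and GGACT are common forms, and in mRNA it concentrates in long internal exons and around the stop codon. In the testis it accompanies transcripts through meiosis and into the spermatid, where mRNAs are stored and translated late, and male mice without ALKBH5 have impaired fertility.

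The input count table held between 9921365 and 13147239 counts per library. The lists were assigned to genotype and fraction by their names. Genes with a member in only 1 list were highest in the input library of the same name for WT PA (45 genes). They were highest in WT PA for the KO PA list (126 genes) and the WT RO list (142 genes), and in KO PA for the KO RO list (78 genes), with medians at most 0.18 log2 units above the mean of the gene. Among genes with any peak in only 1 list, the input of the same name was highest for WT PA (327 genes), WT RO (1189 genes) and KO RO (440 genes), and that of KO RO was highest for the KO PA list (641 genes). Gene symbols exist only for genes with a peak, which left 2 of 6 pachytene markers (Sycp1 and Mybl1). They summed to 448 to 552 CPM (the count of a gene relative to the scaled total of its library) in the 4 libraries, with no lower level in RO. The 3 of 7 spermatid markers with a symbol (Acrv1, Tssk1 and Tssk2) summed to 70.2 and 86.4 CPM in WT and KO PA and to 169 and 136 CPM in WT and KO RO. Leydig cell markers (Cyp11a1 and Hsd3b1) summed to 136 CPM in WT PA and to 16.7 to 41.5 CPM in the other libraries. The 3 Sertoli markers with a symbol summed to 150 to 299 CPM, the muscle gene Myh11 stood at 143 to 285 CPM, the macrophage gene Csf1r at 2.13 to 21.5 CPM and the 3 endothelial markers at 84.3 to 170 CPM in sum, and no marker with a symbol was at 0. What these differences contribute to the results was not tested, and in bulk RNA fewer cells of a type and less RNA per cell cannot be told apart. Alkbh5 itself was not analysed here.

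Sequence could be read where members reached a RefSeq transcription start window, 250 bases before to 50 bases after the start in GRCm38.p6. Of the 3127 members, 68 (2.17%) shared at least 1 base with such a window, compared with 1.05% of CDS peaks, 0.221% of 3' UTR peaks and 28.1% of 5' UTR peaks. For 57 of them, in 39 genes, the window was that of their own gene. The stretches below each hold a GGAC or GGACT (in capitals) inside a member and are written 5' to 3' on the strand of the transcript. They are shown because the member recurred in at least 2 lists or, for Enthd1, had the highest fold of those found in 1 list. Another Chml stretch also recurred and is described below without its sequence.
Chml, chr1:175688478-175688507: agttaaaagcttaGGACTtaaaaactcagt
Gm36864, chr7:44236177-44236206: gagtgctgtctggGGACagagagacagaaa
Ubl5, chr9:20643121-20643150: aactcccaaagtgGGACTctgggagagagg
Ppwd1, chr13:104228795-104228824: tctcttctaacgcctcGGACgacatggcga
Als2cr12, chr1:58692396-58692425: ctgccttgtaccatGGACcccaatcctttc
Enthd1, chr15:80560425-80560454: gcggcagaacttgGGACgaatctgtcaggc

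Chml encodes a Rab escort protein, and its GGACT begins 141 bases upstream of the RefSeq start, inside members of WT PA (20-fold), KO PA (4.66-fold) and KO RO (2.27-fold). These folds, like all below, are the authors' enrichment of IP over input for the peak. The Chml stretch not shown held a GGAC 43 bases past the start, inside other members of KO PA (10.9-fold) and KO RO (6.64-fold). The Gm36864 stretch lay in members of WT PA and WT RO (14.8-fold each) and KO PA (41.0-fold). Ppwd1, which encodes a peptidyl-prolyl isomerase of the spliceosome, held its GGAC 36 bases past the start in KO PA (3.49-fold) and KO RO (1.99-fold). Als2cr12, named Flacc1 in RefSeq, had it in WT RO (9.67-fold) and KO RO (1.86-fold), and Enthd1 in KO RO alone (32.6-fold).

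Ubl5 encodes a ubiquitin-like protein of the spliceosome, and its whole start window lay inside a member, at 8.51-fold in WT PA (chr9:20642998-20643506) and 16.4-fold in KO PA (chr9:20642998-20643536). The 250 bases before its RefSeq start hold 1 GGAC, which is also the only GGACT there, in capitals.
Ubl5, chr9:20643086-20643335, + strand: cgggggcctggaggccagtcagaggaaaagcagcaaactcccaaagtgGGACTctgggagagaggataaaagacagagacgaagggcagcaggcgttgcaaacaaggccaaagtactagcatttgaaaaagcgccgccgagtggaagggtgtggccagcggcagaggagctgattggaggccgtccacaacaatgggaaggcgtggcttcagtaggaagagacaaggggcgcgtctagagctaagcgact

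Across the windows that members touched, GGAC on the transcript strand occurred in 35 of 48 (72.9%), and in 65.6% of all 32851 windows of the same 300-base length. On the opposite strand the shares were 66.7% and 66.1%. GGACT, which contains GGAC, occurred in 33.3% of touched windows on the transcript strand and in 37.5% on the opposite strand, against 26.1% and 26.0% of all windows. In the shared bases themselves, 20 members held GGAC and 9 held GGACT. A match is a string in the sequence, not a measured methylation site.

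The 4 lists held similar shares of members. WT PA had 665 members of 7502 peaks (8.86%, Wilson 95% interval 8.24 to 9.53), KO PA 891 of 9931 (8.97%, 8.43 to 9.55), WT RO 792 of 9418 (8.41%, 7.87 to 8.99) and KO RO 779 of 8846 (8.81%, 8.23 to 9.41). In PA the KO list held 1.34 times as many members as the WT list (exact interval 1.21 to 1.48), where all peaks gave 1.32 times. In RO the ratio was 0.984 (0.890 to 1.09), where all peaks gave 0.939. The share of members differed between genotypes by 0.108 percentage points in PA (Newcombe interval -0.753 to 0.957) and 0.397 points in RO (-0.417 to 1.21), less than counting error in both. In PA the members covered 185.3 kb (WT) and 276.1 kb (KO) of exon, and in RO 220.7 and 223.3 kb.

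**Figure D1:**
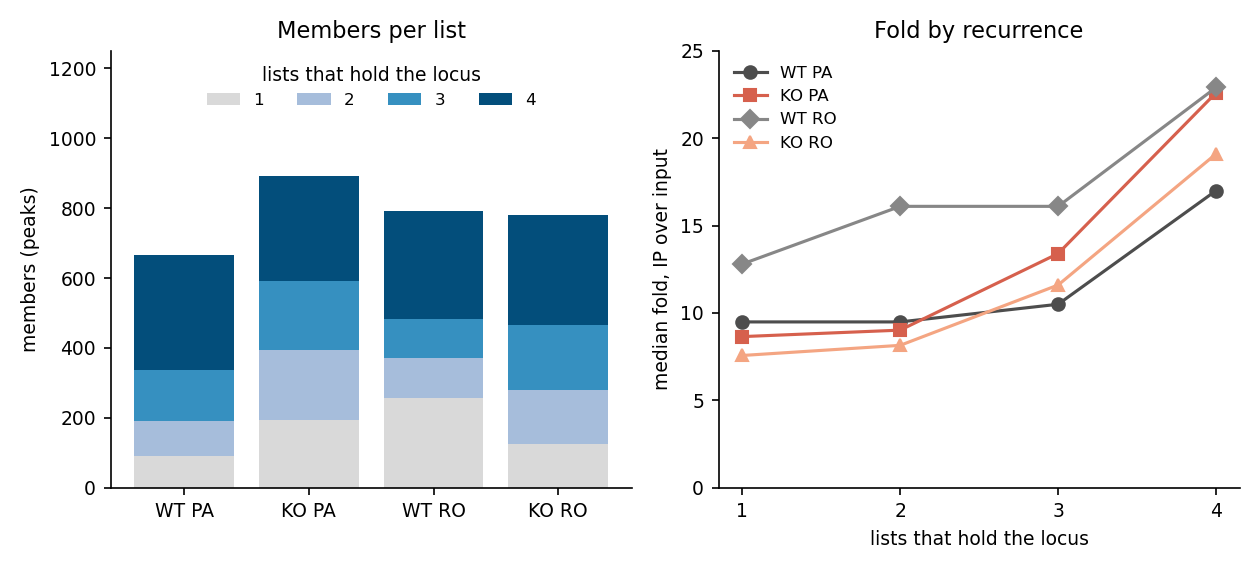
Left, number of members in each peak list (1 list per genotype and fraction), divided by how many of the 4 lists hold a member at the same locus. Right, median fold (IP over input, from the authors) of the members of each list against the same count, on a linear axis from 0. Members at loci in all 4 lists make up 327 of 665 in WT PA, 300 of 891 in KO PA, 310 of 792 in WT RO and 313 of 779 in KO RO, and have the highest median fold in each list.

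Most genes had 1 member. Of the 504, 688, 601 and 596 genes with a member in WT PA, KO PA, WT RO and KO RO, between 76.0% and 78.1% had exactly 1 and 31 to 34 per list had 3 or more, up to 6. The median exonic width of a member was 240 bp in WT PA, 241 bp in KO PA, 211 bp in WT RO and 240 bp in KO RO. CDS peaks were wider in each list (266, 293, 241 and 270 bp), and 3' UTR peaks were 211, 240, 210 and 211 bp wide. Between 14.1% and 19.4% of members crossed a splice junction, having more than 1 exon block, compared with 16.8% to 28.1% of CDS peaks and 5.46% to 8.09% of 3' UTR peaks. The median fold was 12.6 (WT) and 12.2 (KO) in PA and 16.1 (WT) and 11.1 (KO) in RO. These medians stood at percentiles 52.5, 47.1, 52.0 and 46.5 of the folds of all peaks in their own list, so members were neither high nor low in it as a class. From 10 to 12 members were among the 100 highest folds of each list. A deposited false discovery rate of 0.05 or more applied to 41 (WT, 6.17%) and 19 (KO, 2.13%) members in PA, and to 104 (WT, 13.1%) and 40 (KO, 5.13%) in RO.

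Along the gene, members lay between CDS peaks and 3' UTR peaks. RefSeq gene spans (GRCm38.p6) could place 2936 of the members. Their midpoints had a median position 84.3% of the way from the 5' to the 3' end of the span, against 69.3% for CDS peaks and 95.4% for 3' UTR peaks. The last 10% of the span held 39.6% of members (37.9 to 41.4), 21.5% of CDS peaks and 72.7% of 3' UTR peaks. The first 10% held 6.74% of members, close to the 6.69% of CDS peaks, and 0.170% of 3' UTR peaks. The median distance to the 3' end was 3303 bp for members, 9082 bp for CDS peaks and 1605 bp for 3' UTR peaks, and 63.7% of members lay within 5 kb of it. By list, the share of members in the last 10% ran from 38.2% in WT PA and WT RO to 40.1% in KO PA and 41.8% in KO RO, and the intervals of all 4 overlapped.

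**Figure D2:**
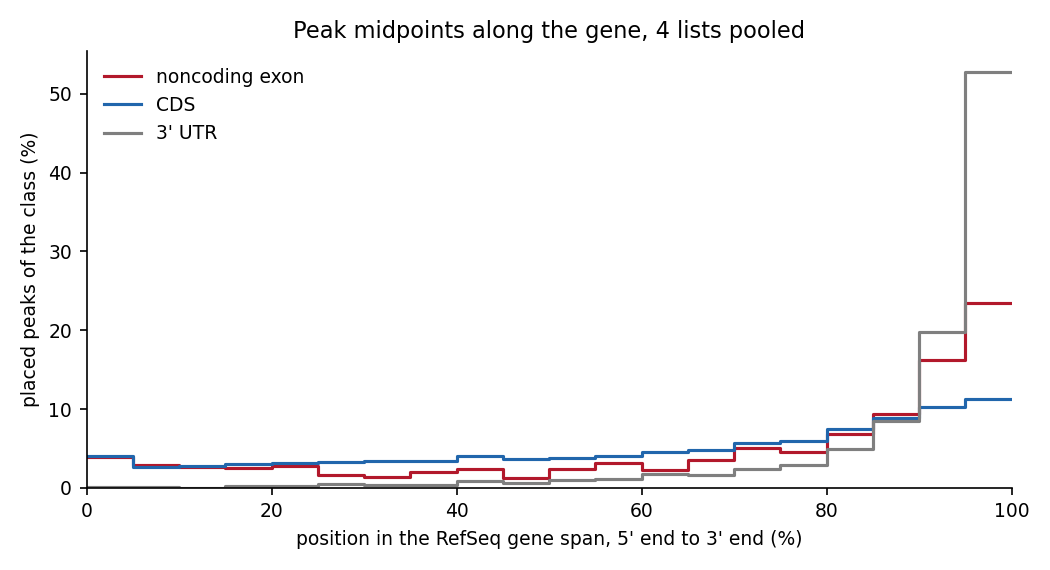
Share of placed peaks of each class (vertical axis, percent) in 20 equal bins of the RefSeq gene span (horizontal axis, percent from the 5' to the 3' end, introns included), with the 4 lists pooled. The last bin holds 23.4% of members in noncoding exons and 52.8% of 3' UTR peaks, and members fall between the other classes there.

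Members without a partner peak were common. Of the WT PA members, 523 of 665 (78.6%, Wilson 95% interval 75.4 to 81.6) shared at least 1 bp of exon block on the same strand with a KO PA peak of any class, and 492 of 891 KO PA members (55.2%, 51.9 to 58.5) did so with WT PA. In RO the shares were 429 of 792 WT members (54.2%, 50.7 to 57.6) and 429 of 779 KO members (55.1%, 51.6 to 58.5). Between fractions, 62.1% of WT PA members had a counterpart in WT RO and 50.8% of WT RO members had one in WT PA. The KO fractions shared more, with 67.7% of KO PA members found in KO RO and 78.9% of KO RO members found in KO PA. WT RO members overlapped the KO PA list (59.8%) more often than the KO RO list (54.2%), and KO RO members overlapped WT PA (60.2%) more often than WT RO (55.1%). The lists differ in length, which sets what can be shared, so these shares rank nothing about the conditions.

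Against the other classes, members recurred less often than CDS peaks in all 8 comparisons within a fraction or a genotype. The difference from CDS peaks was -6.55 percentage points for WT PA members in KO PA (Newcombe 95% interval -9.99 to -3.41), -5.73 for KO PA in WT PA (-9.25 to -2.24), -10.98 for WT RO in KO RO (-14.7 to -7.27) and -8.64 for KO RO in WT RO (-12.4 to -4.92). Between fractions it ran from -9.37 (WT RO in WT PA) to -3.87 (KO PA in KO RO), and its interval excluded 0 each time. The difference from 3' UTR peaks was 3.53 points (-0.350 to 7.22), 4.04 (0.143 to 7.90), 3.67 (-0.365 to 7.67) and 1.21 (-2.89 to 5.27) in the comparisons between genotypes, so only that for KO PA in WT PA exceeded counting error among these. Between fractions it was 1.69 points for WT PA in WT RO (-2.76 to 6.06), 9.01 for WT RO in WT PA (4.98 to 13.01) and 4.37 for KO RO in KO PA (0.868 to 7.68). For KO PA in KO RO it was -4.31 (-7.95 to -0.748), so members recurred less often than 3' UTR peaks there. Members with a counterpart were wider and stronger than those without, for example 266 against 180 bp and 14.4-fold against 9.49-fold for WT PA members in KO PA. Members were also narrower than CDS peaks in each list, and the part of width in the difference was not tested.

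**Figure D3:**
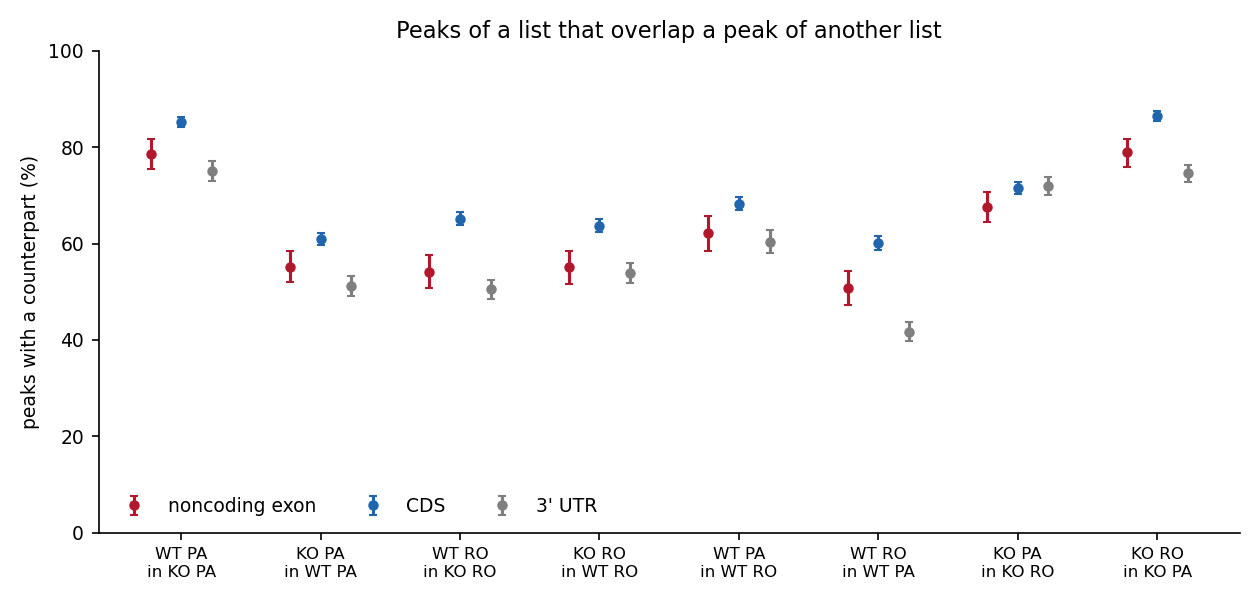
Percent of peaks of the first list that overlap a peak of any class in the second (at least 1 bp of exon block, same strand), by class of the first peak; bars are Wilson 95% intervals, which cover counting error only. Members in noncoding exons (left point of each group) lie below CDS peaks in all 8 comparisons, from 50.8% to 78.9% of members.

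The authors' class was stable where a peak recurred. Over the comparisons between genotypes in both directions, 1780 of 1873 shared members (95.03%) met another member, and the same share was 97.6% for CDS peaks and 93.3% for 3' UTR peaks. Most of the rest met a 3' UTR or CDS peak. Shank1, which encodes a synaptic scaffold protein, was such a case: its WT PA member at chr7:44357068-44357607 had 209-fold enrichment, and the KO PA peak that overlapped it had another class.

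Chaining members that overlapped across lists gave 1416 loci. Of these, 285 (20.1%, Wilson 95% interval 18.1 to 22.3) were in all 4 lists, 203 in 3, 273 in 2 and 655 (46.3%) in 1. The same chaining put 28.2% of 7454 CDS loci (27.2 to 29.3) and 15.7% of 3932 3' UTR loci (14.6 to 16.9) in all 4 lists. Loci in 1 list numbered 254 for WT RO, 192 for KO PA, 122 for KO RO and 87 for WT PA. The most frequent combination of 2 lists was KO PA with KO RO, at 106 loci (7.49%). WT PA with WT RO had 34 (2.40%), WT PA with KO PA 41 (2.90%) and WT RO with KO RO 25 (1.77%). CDS loci showed close shares, 7.51% for both KO lists alone and 1.70% for both WT lists alone, and no test of the difference was made.

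**Figure D4:**
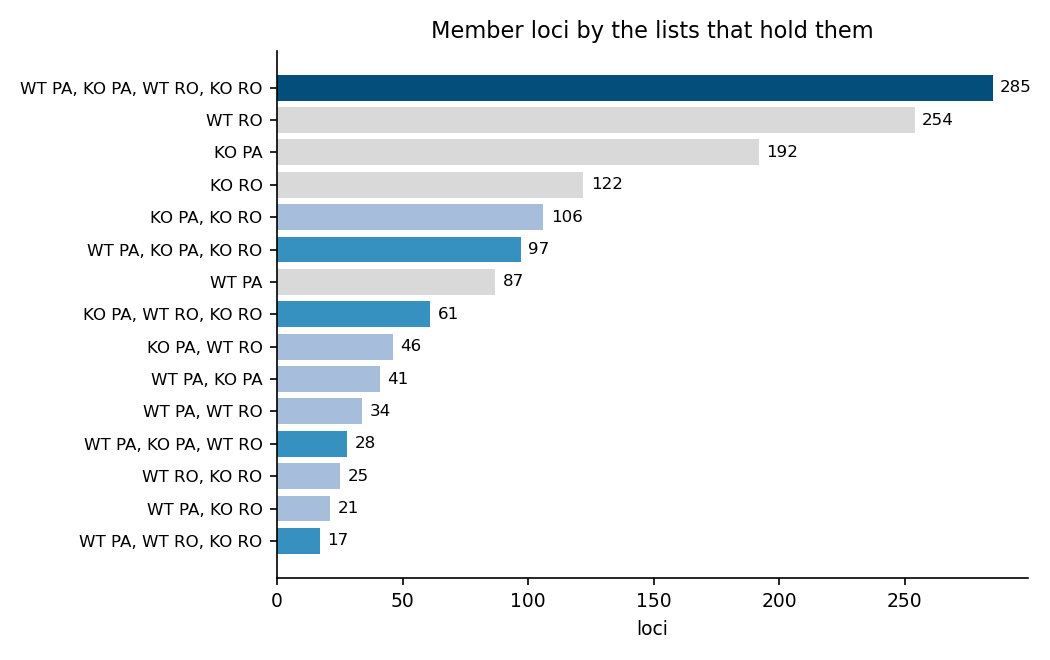
Number of member loci (horizontal axis) for each combination of peak lists that holds them; darker bars are combinations of more lists. The combination of all 4 lists has 285 loci, and the next are single lists, WT RO with 254 and KO PA with 192.

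Recurrence went with strength, width and input level. In KO PA the median fold was 8.65 for members at loci in 1 list and 22.6 at loci in all 4, the median width 181 and 389 bp, and the median input of the genes 41.4 and 57.2 CPM. In WT RO the folds were 12.8 and 22.9, the widths 181 and 301 bp and the inputs 32.0 and 56.3 CPM. The inputs were 34.9 and 59.6 CPM in WT PA and 30.9 and 46.2 CPM in KO RO. The rise was not steady there: loci in 2 and 3 lists had 54.4 and 44.4 CPM in WT PA and 40.1 and 37.6 CPM in KO RO. Width bears on the 1 bp overlap rule, so width and recurrence are not independent measures. Of WT RO members, 26.1% at loci of 1 list and 4.84% at loci of 4 lists were at or above the false discovery rate of 0.05.

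Of the loci present in all 4 lists, the 8 with the best mean rank by fold lay in Tnrc6c, Phip, Rbm15, Brwd3, Setdb1, Ccnt2, Ralgds and Cdk13. Rbm15, an adaptor of the m6A methyltransferase complex, carried a peak without a splice junction of about the same ends in each list, chr3:107330800-107332296 in WT PA. It was 1497 bp wide with 103-fold enrichment in WT PA, 1647 bp and 89.2-fold in KO PA, 1617 bp and 369-fold in WT RO, and 1527 bp and 54.2-fold in KO RO. It was the widest member of WT PA and KO RO and the second widest of KO PA. Rbm15 held 10 members in 3 loci and no CDS or 3' UTR peak in any list, and its input counts were 1853, 1668, 1709 and 1573 in WT PA, KO PA, WT RO and KO RO.

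Tnrc6c encodes a GW182 protein, the partner of Argonaute in miRNA silencing, and held 18 members in 5 loci. Its peaks were cut differently in the lists: WT RO had 1 member of 2066 bp at chr11:117721021-117723086 with 1290-fold enrichment, the highest fold of any member, and 1 of 510 bp at 42.8-fold. At the same locus WT PA had 3 members with folds of 69.2, 27.1 and 2.81, KO PA had 2 with 102 and 54.2, and KO RO had 2 with 66.9 and 48.6. The gene had 5374, 3672, 4530 and 3236 input counts in WT PA, KO PA, WT RO and KO RO. Input reads over the peak itself were not analysed here.

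Phip, which encodes a bromodomain and WD-repeat protein, had 1 member per list at this locus, with folds of 90.9 for WT and 111 for KO in PA, and 159 and 61.3 in RO. In WT PA (chr9:82871106-82875314) and KO PA it crossed a splice junction, and in the RO lists it did not. Setdb1, a histone H3 lysine 9 methyltransferase, had folds of 142, 64.7, 157 and 57.1 in WT PA, KO PA, WT RO and KO RO, at chr3:95327382-95328572 in WT PA. Brwd3, another bromodomain and WD-repeat gene on the X chromosome, had 106, 156, 121 and 47.8 in the same order. Ccnt2, the cyclin T2 partner of CDK9, had 83.0, 103, 130 and 49.2, and the Ral exchange factor gene Ralgds had 125, 68.8, 378 and 43.1. Cdk13, a kinase of the RNA polymerase II tail, had 53.8 in both PA lists, 117 in WT RO and 116 with a second member of 9.77 in KO RO. The highest fold per list was lowest in KO RO at each of these loci other than that of Cdk13. Folds of different lists rest on libraries of different depth and are not on 1 scale.

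Other high folds recurred as well. Mtmr12, a myotubularin-related gene, had the highest fold among the members of both PA lists. It had 249-fold in WT PA (chr15:12269883-12270212, rank 13 of all peaks) and 319 in KO PA (rank 3), and reached 61.9 in WT RO and 12.5 in KO RO. H2-Q4, a class I histocompatibility gene that shares sequence with its neighbours, held members in 2 loci. Its highest folds were 248 (WT) and 45.5 (KO) in PA and 33.6 (WT) and 239 (KO) in RO. Kin, which encodes a DNA- and RNA-binding protein, had 196, 84.6, 22.9 and 60.0 in WT PA, KO PA, WT RO and KO RO. Jade1, a subunit gene of a histone acetyltransferase complex, had 183, 54.5, 8.07 and 83.2. Rreb1, a zinc finger transcription factor gene, held 18 members in 7 loci, and its highest folds per list were 99.3, 285, 110 and 154. The WT RO value was that of another locus (chr13:37932116-37932416), and WT RO had no member at the locus of the highest folds of the other lists. The order of the lists thus differed from gene to gene.

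The remaining genes among the 5 with the highest member folds of a list were Zfp451 (217-fold, 1111 bp) and Ankrd24 (164-fold) in KO PA. In WT RO they were Slc27a1 (301-fold), a fatty acid transporter gene, and Uspl1 (270-fold), a SUMO isopeptidase gene. In KO RO they were Txlna (275-fold), Uaca (263-fold), Itih5 (236-fold) and the centrosomal gene Cep97 (199-fold, 3 exon blocks). The widest members beside those of Rbm15 and Tnrc6c were in Uaca (1977 bp, KO PA) and the ubiquitin ligase gene Rnf139 (1704 bp, WT RO).

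Some strong members had no peak of any class over them in the other genotype of the fraction. In WT PA these were led by the RhoGAP gene Arhgap23 (67.5-fold, chr11:97500250-97500579) and by Usp27x (34.8-fold), a deubiquitinase gene on the X chromosome with a pair of nearly identical entries there. In KO PA they were the phosphatase gene Dusp18 (77.5-fold), the ETS factor gene Etv3 (54.1-fold) and Teddm2 (49.8-fold). In WT RO they were the zinc finger gene Zfp26 (233-fold), the chaperonin-like gene Bbs10 (84.8-fold) and the recombination gene Rad52 (79.4-fold). In KO RO they were Itih5 (236-fold), Rreb1 (154-fold) and Ankrd24 (137-fold). Every one of these loci was held by 2 or 3 lists, so each also had a member in the other fraction. Input counts moved with some of them and not with others. The log2 KO over WT ratio went the way of the member for Etv3 (1.47 in PA, exact binomial interval 1.22 to 1.75), Arhgap23 (-0.45) and Usp27x (-0.44) in PA. In RO it did so for Itih5 (0.74), Rreb1 (0.69) and Bbs10 (-0.17). It went the other way for Dusp18 (-0.34) and Teddm2 (-0.57) in PA and for Ankrd24 (-0.84) and Rad52 (0.15) in RO, and Zfp26 stood at 0.003 in RO. The exact binomial interval included 0 for Teddm2 in PA (-1.29 to 0.07). In RO it did for Bbs10 (-0.42 to 0.08), Rad52 (-0.18 to 0.48) and Zfp26 (-0.16 to 0.17). The directions of these genes were therefore within counting error, while the intervals of the other genes excluded 0.

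Most genes with a member had no CDS or 3' UTR peak. In WT PA 76 of 504 genes (15.1%, Wilson 95% interval 12.2 to 18.5) had such a peak in the same list, in KO PA 116 of 688 (16.9%, 14.2 to 19.8), in WT RO 96 of 601 (15.97%, 13.3 to 19.1) and in KO RO 86 of 596 (14.4%, 11.8 to 17.5). Genes with a CDS peak had similar shares with a 3' UTR peak in the same list. These were 13.5%, 17.1%, 19.4% and 16.4% in WT PA, KO PA, WT RO and KO RO. Of genes with a 3' UTR peak, 25.9% to 30.7% had a CDS peak in the same list. Over all lists together 273 of 1025 genes with a member (26.6%, 24.0 to 29.4) had a CDS or 3' UTR peak. A CDS peak was found in 180, a 3' UTR peak in 155 and both in 62. Of the 4409 genes with a CDS peak in any list 4.08% also had a member, and 30.5% had a 3' UTR peak. Of the 7214 protein-coding genes with any peak, 1025 (14.2%) had a member and 3186 had a 3' UTR peak. The classes thus differ in size, and the shares of 4.08% and 30.5% cannot be ranked against each other.

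Several genes carried members along their length. Ythdc1, the nuclear reader of m6A, had the most, 20 members in 6 loci between chr5:86815635 and 86836120, with 5 for WT and 6 for KO in PA, and 4 and 5 in RO, and no CDS or 3' UTR peak. The highest fold was that of the WT PA member at chr5:86828727-86829027, a locus with 73.8-fold (WT) and 12.4 (KO) in PA and 10.8 (WT) and 3.90 (KO) in RO, and in those 3 lists another Ythdc1 member reached 14.1-fold, 13-fold and 12.6-fold. Auts2, which encodes a subunit of a Polycomb complex, had 16 members in 4 loci, with its highest folds 17.9, 73.7, 13.5 and 47.8 in WT PA, KO PA, WT RO and KO RO. Among genes with 2 or more peaks in a list of which at least 1 was a member, all peaks were members in 52.0% to 56.5%. The same measure for CDS peaks gave 50.8% to 60.8%, so this was no trait of members.

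Overlapping gene models affected some entries. Within a list, 74 pairs of members overlapped, 46 of them in 1 gene and 28 across 2 genes. The zinc finger gene Zbed6 and Gm38394 accounted for 15 pairs, and they hold 16 and 15 members, so the same stretches are entered under both names. Zbed6 is listed at 0 counts in all 4 input libraries and Gm38394 at 13, 40, 0 and 75 in WT PA, KO PA, WT RO and KO RO. Lime1, Gm26620 and Gm42742 are also listed at 0 in all 4, and these 4 genes hold 20 members. How reads shared by overlapping genes were counted is not given in the sources used here.

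Gene lists were chosen with earlier results of these data known and serve for counts only. Members were found in 3 of 13 genes of the m6A machinery with any peak (Rbm15, Ythdc1 and, in WT RO, the RNA-binding protein gene Hnrnpa2b1 at 14.0-fold). Meiosis and recombination genes had a member in 0 of 13, and 11 of them had a CDS peak. Spermatid genes had a member in 2 of 20, the acrosomal gene Acrv1 in WT RO (15.5-fold) and Gopc, which serves acrosome formation, in KO RO (7.72-fold), while 16 of 20 had a CDS peak. Small RNA silencing genes had a member in 3 of 13: Tnrc6c, its relative Tnrc6b in WT PA (21.1-fold) and WT RO (13.5-fold), and Dgcr8, the partner of Drosha, in KO PA (1.96-fold). Beside these counts, 1025 of all 7214 genes with a peak (14.2%) had a member and 4409 had a CDS peak.

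Chromatin modifiers had a member in 10 of 38 genes with a peak (26.3%, against 14.2% of all genes with a peak), and 2 of them, Tet2 and Asxl1, in all 4 lists. Tet2, which oxidises 5-methylcytosine, had highest folds of 71.2 for WT and 107 for KO in PA, and 41.7 and 110 in RO. Asxl1, a Polycomb-associated gene, had 11.8, 44.7, 47.1 and 28.9 in the order WT PA, KO PA, WT RO and KO RO, and 13 members in all. The other 8 had 1 member each, led by Ep300, a histone acetyltransferase gene, at 99.6-fold and Nsd1, a histone H3 lysine 36 methyltransferase gene, at 91.0-fold in KO RO, and 35 of the 38 had a CDS peak.

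Splicing genes had a member in 5 of 13 (38.5%, against 14.2% of all genes with a peak): Srsf5 and Clk2 in all 4 lists, Srsf4 and Snrnp70 in 3, and U2af2 in 2. SRSF5 and SRSF4 are SR proteins, which bind exons and promote their splicing, CLK2 phosphorylates SR proteins, and SNRNP70 and U2AF2 belong to the U1 particle and the 3' splice site factor. Srsf5 had 1 member per list, with 5-fold (WT) and 14.7 (KO) in PA and 9.87 (WT) and 8.07 (KO) in RO, within chr12:80949847-80950117. Clk2 had 9.49, 3.38, 44.4 and 26.2 in the order WT PA, KO PA, WT RO and KO RO, within chr3:89176472-89176771. None of the 5 genes had a CDS or 3' UTR peak in any list.

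The median input of genes with a member was 49.5 CPM for WT and 46.8 for KO in PA, and 42.5 and 40.3 in RO, next to 50.6, 47.9, 44.1 and 45.7 CPM for genes with CDS peaks in the same lists. The 5 with the highest mean CPM were Rbm25, a splicing regulator gene, Dst, which encodes dystonin, Als2cr12, Leng8 and the ubiquitin ligase gene Trip12. Rbm25 had 25008, 12807, 20044 and 14900 counts in WT PA, KO PA, WT RO and KO RO, with highest folds per list of 4.34 to 10.5. The highest folds per list of Dst, Als2cr12 and Trip12 lay between 1.52 and 12.4. Leng8 had highest folds of 23.2, 21.9, 50.1 and 53.8 in WT PA, KO PA, WT RO and KO RO.

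In PA, 69 of 787 genes with a member in either list (8.77%) were at least 2-fold higher in KO than in WT input and 93 (11.8%) at least 2-fold lower, where 23.8% and 19.9% of all 24331 genes were. In RO, 76 of 822 (9.25%) were higher and 93 (11.3%) lower, where 23.0% and 19.0% of all 24763 genes were. Other genes with a CDS or 3' UTR peak had shares of 10.2% and 10.9% in PA and 12.4% and 11.01% in RO, close to those of the members. The distance to all genes depended on the CPM limit. At a CPM of at least 10, 13.3% of all genes were higher and 13.04% lower in PA, and 11.8% and 12.9% in RO. The median log2 ratio of genes with a member was -0.11 in PA (95% interval of the median -0.18 to -0.05) and -0.02 in RO (-0.07 to 0.04), and that of all genes 0.04 in both. Between RO and PA in WT, 54 of 751 genes with a member (7.19%) were 2-fold higher in RO and 69 (9.19%) lower, where 21.6% and 18.7% of all genes were. In KO, 25 of 805 (3.11%) were higher and 34 (4.22%) lower, where 17.5% and 15.2% of all genes were. Of other genes with a CDS or 3' UTR peak, 8.81% were higher in RO and 9.77% lower in WT, and 4.27% and 4.39% in KO. With scaling by total counts the direction between genotypes turned for genes with a member. In PA 117 were higher in KO and 58 lower, and in RO 105 and 66. Higher genes then made up 66.9% and 61.4% of those past 2-fold instead of 42.6% and 45.0%. That scaling moved the median of all genes to 0.35 in PA and 0.22 in RO, and the genes with a member stayed 0.17 and 0.06 below it.

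**Figure D5:**
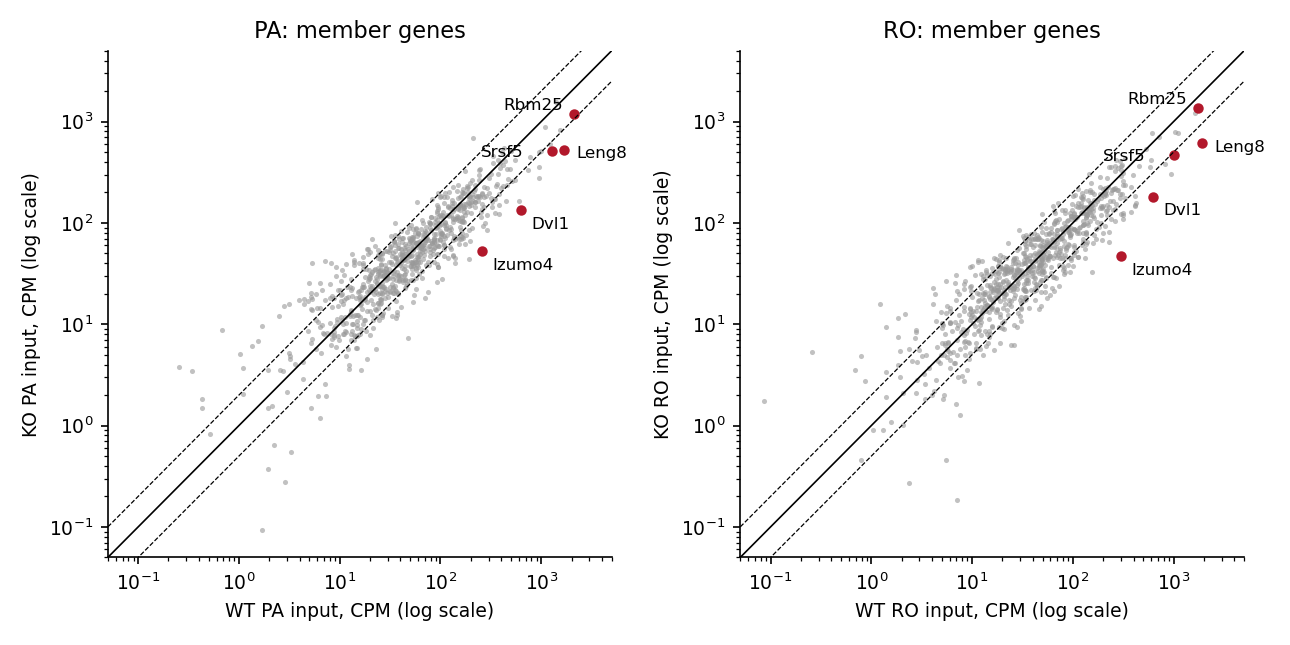
Input of genes with a member in either genotype's list, WT (horizontal) against KO (vertical) in CPM on log axes, for PA (left, 786 of 790 genes) and RO (right, 820 of 827); genes at 0 in a library are not drawn. The solid line marks equality and the dashed lines 2-fold, and Leng8, Srsf5, Dvl1 and Izumo4 lie below the lower line in both panels, while Rbm25 lies between the lines.

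Leng8 and Srsf5 were lower in KO input in both fractions. In PA Leng8 had 19874 (WT) and 5736 (KO) counts, and in RO 22102 and 6692, with log2 ratios of -1.68 (exact binomial interval -1.72 to -1.63) and -1.65. Srsf5 had 14913 and 5524 counts in PA and 11540 and 5125 in RO, with ratios of -1.32 (-1.36 to -1.27) and -1.10. Both KO libraries were below both WT libraries for each gene, while its members were present in all 4 lists. Clk2 had 2437 and 971 counts in PA (-1.21) but 1591 and 1323 in RO (-0.19).

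Where all 4 inputs held counts and the higher input of the pair reached 10 CPM, the lowest ratios in PA belonged to Htra2, a mitochondrial protease gene, with 561 and 79 counts (-2.68), Izumo4, of a sperm protein family, with 3008 and 573 (-2.27), Dvl1, of Wnt signalling, with 7387 and 1450 (-2.23), and the mitochondrial rRNA methyltransferase gene Mettl15 with 190 and 38 (-2.15). In RO they were Izumo4 with 3450 and 519 counts (-2.66), Dusp15 with 1799 and 363 (-2.23), the iron-sulphur cluster gene Isca2 with 135 and 29 (-2.07) and Gm36864 with 303 and 69 (-2.03). Izumo4 and Dusp15 had low KO counts in both fractions. Izumo4 had members in WT PA (4.57-fold), KO PA (9.02-fold) and WT RO (2.76-fold) and none in KO RO.

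By the same limits the highest ratios in PA were those of Neto2, an auxiliary subunit gene of kainate receptors, with 62 and 438 counts (2.90), the histone gene H2afx with 83 and 453 (2.54), Arl16 with 33 and 165 (2.37) and the nuclease gene Dclre1b with 58 and 278 (2.34). H2afx encodes H2AX, the histone phosphorylated at DNA breaks and over the sex chromosomes in pachytene cells. It had 1 member per list, at 10.8-fold (WT) and 5.64 (KO) in PA and 221 (WT) and 5.82 (KO) in RO. In RO the highest were Aig1 with 14 and 172 counts (3.51), Poglut1 with 21 and 126 (2.54), Teddm2 with 25 and 139 (2.45) and Fam90a1b with 47 and 248 (2.42). Neto2 was also higher in KO RO (2.14) and had its 5 members in KO PA, WT RO and KO RO, none in WT PA. Presence did not go with the higher count throughout: Aig1 had its only member in WT RO (6.73-fold), at its lowest count, and Arl16 had members in the lists other than KO PA, at its highest.

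In RO the genes with a member in 1 genotype's list differed in input. Genes with a member in KO RO and not in WT RO had a median log2 KO over WT ratio of 0.19 (95% interval of the median 0.09 to 0.29, 225 genes), with 29 (12.9%) past 2-fold higher and 7 (3.11%) past 2-fold lower, where 23.0% and 19.0% of all genes were. Genes with a member in WT RO alone had -0.06 (-0.22 to 0.06, 228 genes), with 18 (7.89%) higher and 37 (16.2%) lower, and genes with a member in both lists had -0.12 (-0.17 to -0.01, 369 genes). Of other genes with a CDS or 3' UTR peak in either RO list, 12.4% were past 2-fold higher and 11.01% past 2-fold lower. In PA the corresponding medians were -0.05 for KO PA alone (-0.16 to 0.07), -0.12 for WT PA alone (-0.29 to -0.01) and -0.16 for both, whose intervals overlap. A peak is called from IP and input reads together, so presence in a list and input count are not independent measures.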

How the data were processed

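MeRIP-seq libraries (1 input and 1 IP per genotype and cell fraction, 8 samples) were grouped by their titles. TRIzol was used to extract total RNA, which was fragmented with zinc chloride to 100 to 200 nt before immunoprecipitation, per the labels' protocols. The submitters' processing notes name cutadapt 2.5, HISAT2 2.1.0, HOMER 4.10.4 and build mm10, without roles; the peak caller, the counting tool and the annotation are not given in the sources used here. The authors deposited whole-number gene counts for the 4 inputs, and 4 peak lists with a fold (ratio of IP over input) and a log10 false discovery rate per peak, per the file headers. IP counts were not analysed here.

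Members were taken by the class and gene class columns. Coordinates are those of the deposited lists in mm10, which is the GRCm38 assembly, written 1-based. Peaks were compared by exon blocks on the same strand, with at least 1 bp shared; the code was checked against bedtools 2.31.1. TMM factors of 0.892 to 1.09 (edgeR 4.0.16 under R 4.3.3) brought the counts to log2 CPM with a prior count of 2, for genes at a CPM of 1 or more in either library. A simulation with 200 changed genes among 53465 tested the ratios on simulated data, and all 200 were recovered in the PA and in the RO comparison. The planted changes were larger than the 2-fold limit, in genes well above the CPM limit and with counting noise only. It thus says nothing of low counts, of changes near 2-fold or of spread between animals. Intervals at 95% (Wilson, exact binomial, Newcombe, order statistics of a median) cover counting error only, and PCR copies without molecular identifiers are not independent molecules. Sequences are from RefSeq (GRCm38.p6), where 795 of the 1025 genes with a member had a start window. The share of GGAC within all members needs genome sequence and was not analysed here.

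The members and gene lists were chosen with earlier results of these data known. Named were the 5 highest folds per list, the 8 loci in all 4 lists with the best mean rank, the 3 highest folds without a counterpart and the 2 widest per list, the 5 genes with most members, the 4 highest and lowest input ratios per fraction at a CPM of 10 or more in the higher library, the 5 highest inputs, the 3 highest folds in genes without CDS or 3' UTR peaks, and list genes with a member in all 4 lists. Snrnp70, Srsf4, U2af2, Ep300, Nsd1, Hnrnpa2b1, Acrv1, Gopc, Tnrc6b and Dgcr8 were named as members of small counts, and the start-window genes for their sequence, after their values were seen. The remaining software was matplotlib 3.10.9, pandas 2.3.3, scipy 1.17.1 and numpy 2.4.6 under Python 3.11.15.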

Additional observations from a re-analysis of the deposited data

How the results depend on the processing

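No paired analysis was possible because each group holds 1 library, and for the same reason no library could be left out. Of 112 alternative values, 77 stayed within 1.5 times the main count or within the main 95% interval. Among genes with a member, scaling by total counts gave 117 higher and 58 lower in PA. It turned their median log2 ratio in PA to 0.18 and moved that in RO to 0.16. DESeq2 1.42.0 size factors, a CPM of at least 10, no filter and a prior count of 0.5 moved none of these member values. The values of all genes did change with a CPM of at least 10. The median of genes with a member minus that of all genes was then -0.07 in PA and 0.05 in RO. In the main setting it was -0.15 and -0.06. A fold of at least 5 lowered the KO over WT ratio of member numbers in RO to 0.875. A false discovery rate under 0.05 moved the WT RO median width to 240.5 bp and fold to 18.8, and the share of WT RO members found in KO RO to 57.7%. As genomic span, the median widths were 266, 271, 241 and 270 bp in WT PA, KO PA, WT RO and KO RO. Merging overlapping members moved none of the 10 values it was run on.

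The choice of overlap moved the shares most. With a reciprocal overlap of 50% they were 62.4% (WT PA in KO PA), 46.7% (KO PA in WT PA), 40.3% (WT RO in KO RO), 40.9% (KO RO in WT RO), 48.7% (WT PA in WT RO), 41.0% (WT RO in WT PA), 59.3% (KO PA in KO RO) and 66.6% (KO RO in KO PA). With any peak in the same gene they were 89.3%, 70.4%, 72.9%, 74.1%, 81.4%, 69.9%, 80.8% and 87.7% in that order. With a member as the only counterpart, 74.3% (WT PA in KO PA), 64.4% (KO PA in KO RO) and 75.2% (KO RO in KO PA) were found. Counting CDS or 3' UTR peaks in any of the 4 lists, 26.6%, 25.1%, 22.8% and 24.8% of genes with a member had 1 in WT PA, KO PA, WT RO and KO RO. By construction these alternatives ask for more shared bases or for none, accept fewer kinds of counterpart or look in more lists. Depth limits the low counts: 14 or 21 counts, as for Aig1 and Poglut1 in WT RO, give wide ratios, and IP depth is unknown here.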
